A study of Homo sapiens with 8 samples.

Results

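AsPC-1 is a human pancreatic cancer cell line, labelled WT, and the data described here are its response to roseoflavin when grown as spheroids. The study profiled RNA from 8 samples, 4 of AsPC-1 and 4 of PANC-1, a second pancreatic cancer line, and the 4 AsPC-1 samples are the ones described. Cells spent 3 days in methylcellulose medium, which keeps them in suspension, and were then exposed for 24 h to vehicle, to 10 µM roseoflavin, to 1 nM trametinib or to both. Each treatment of each line had 1 library, so no group had a replicate. The roseoflavin response was read from 2 pairs of libraries, roseoflavin against vehicle and both compounds against trametinib, as differences in log2(TPM + 1), where TPM is the abundance of a transcript relative to a common library total. Of 62649 listed genes, 6710 had a RefSeq mRNA accession (NM_) and a mean of at least 10 TPM over the 4 AsPC-1 libraries, and these were tested. The lowest mean kept was 10.0 TPM (ELP6). Of the tested genes, 3755 moved the same way in both pairs, 1414 (21.1%) upward and 2341 (34.9%) downward, and the description keeps to these genes except where gene lists are counted or members of a list are given for their level.

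Roseoflavin is a natural antibiotic analogue of riboflavin, the vitamin from which cells make the flavin cofactors FMN and FAD, and enzymes that handle riboflavin can convert it into analogues of those cofactors. Trametinib blocks MEK, the kinase directly upstream of ERK in MAPK signalling. The hypoxia-inducible factors (HIFs) are transcription factors that are hydroxylated by EGLN oxygenases and degraded when oxygen is plentiful, and that accumulate when it is scarce, as it can be inside a spheroid. Their targets promote glycolysis, control pH, recruit vessels and include the oxygen sensors themselves.

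The label of the line was checked against its markers. In the 4 AsPC-1 libraries the epithelial marker EPCAM ranged from 1224 to 1485 TPM, CEACAM6 from 1775 to 2104 TPM and KRT19 from 1981 to 2323 TPM. The mesenchymal cadherin CDH2 was listed at 0 in each of them, and VIM, an intermediate filament of mesenchymal and many cultured cells, ranged from 660 to 816 TPM. Markers of blood cells (PTPRC), endothelium (PECAM1) and fibroblasts (COL1A1 and DCN) did not exceed 0.121 TPM. Between 15280 and 15580 genes reached 1 TPM. The share of all TPM taken by transcripts of the mitochondrial genome was 41.2% with vehicle, 44.1% with roseoflavin, 42.2% with trametinib and 41.3% with both. The depth of each library is unknown, since TPM does not retain it. Because all libraries add up to the same total, a change in the mitochondrial share shifts the other genes, and the median change over the tested genes was -0.04 without trametinib and 0.01 with it.

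More genes fell than rose with roseoflavin in AsPC-1, and those with the largest mean falls included the HIF targets ADM, ANGPTL4 and NDRG1. With limma, 204 of the 6710 genes passed a Benjamini-Hochberg adjusted p of 0.05 (3.04%), 25 upward (0.373%) and 179 downward (2.67%), and each of them moved the same way in both pairs. Mean rises of the genes that passed ranged from 0.26 (TNFRSF12A) to 0.48 (FOSL1), and mean falls from 0.26 to 1.09 (ADM) on the log2(TPM + 1) scale. The mean fall was at least 0.5 for 20 genes and at least 1 for 3 genes, while no rise reached 0.5 (0 of 25). After quantile normalization the split was 75 upward and 155 downward, and after rescaling without mitochondrial transcripts it was 56 and 145.

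The 4-library fit left 1 residual degree of freedom, and limma gave each gene the typical spread of genes at its level, so these p-values compare a change with the disagreement between pairs over all genes, which may be technical, and not with replicate cultures. A fit that took the spread from all 8 libraries called 116 genes (1.73%), 18 upward (0.268%) and 98 downward (1.46%), of which 109 were also called by the 4-library fit. No gene passed when all 15680 genes with at least 1 TPM in 2 libraries were tested (0 called, 1346 with an unadjusted p under 0.05 in limma). With 1 AsPC-1 library left out, the 8-library limma fit called from 0 to 2 genes: 2 without the vehicle or the roseoflavin library, and 0 without the trametinib library or the library with both.

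**Figure D1:**
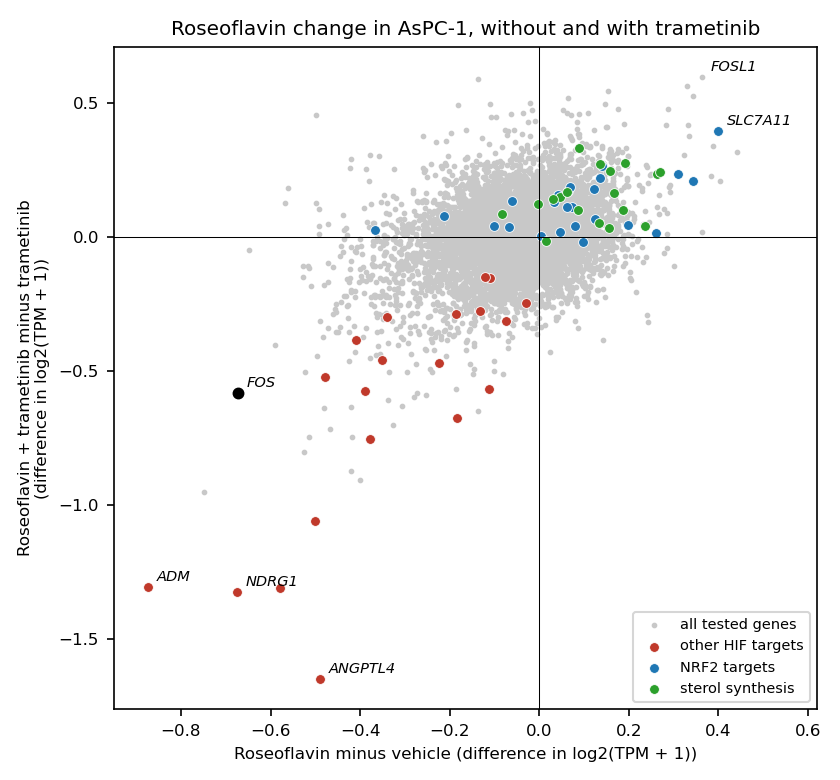
Each point is a tested gene, placed by its difference in log2(TPM + 1) between roseoflavin and vehicle (x axis) and between both compounds and trametinib (y axis), with 3 gene lists in colour. The HIF targets outside glycolysis lie in the lower left quadrant, with ADM at -0.87 and -1.31, while SLC7A11 lies at 0.40 on both axes.

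The pairs share no library, and over the 6710 genes their changes correlated with a Pearson coefficient of 0.359 and a Spearman coefficient of 0.277, given as a description across genes, which are not independent replicates. The points share the scaling of each library. The SD of the changes over all tested genes was 0.124 without trametinib and 0.152 with it.

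ADM (chromosome 11, 10304680 to 10307397, plus strand; GENCODE 29 on GRCh38) encodes adrenomedullin, a secreted peptide that widens blood vessels and is a classical HIF target. It was at 33.3 TPM with vehicle, 17.7 TPM with roseoflavin, 40.2 TPM with trametinib and 15.7 TPM with both compounds. Both libraries with roseoflavin were thus below both without it, at 53.2% of vehicle and 39.0% of trametinib alone. The mean fall was 1.09 in log2(TPM + 1) units (SE 0.084; limma adjusted p 5.13e-34 with the 4-library spread and 0.000303 with the 8-library spread).

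NDRG1 (chromosome 8, 133237171 to 133302022, minus strand) encodes a cytoplasmic protein linked to differentiation and stress, and is induced by hypoxia in many cell types. Its level was 104 TPM with vehicle, 64.9 TPM with roseoflavin, 122 TPM with trametinib and 48.2 TPM with both. The lowest library was the one with both compounds, at 39.4% of trametinib alone, and the groups did not overlap. NDRG1 fell by 1.00 in log2(TPM + 1) units (SE 0.081; limma adjusted p 1.65e-31, and 0.00496 with the 8-library spread).

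FOS (chromosome 14, 75278774 to 75282230, plus strand) encodes a subunit of the AP-1 transcription factor and is an immediate early gene downstream of ERK. The 4 libraries gave 54.8 TPM with vehicle, 34.0 TPM with roseoflavin, 45.3 TPM with trametinib and 29.9 TPM with both. FOS was lower in both roseoflavin libraries, with changes of -0.67 and -0.58 that differed by less than those of ADM or NDRG1. Its mean fall was 0.63 in log2(TPM + 1) units (SE 0.082; limma adjusted p 1.47e-11, and 0.00155 with the 8-library spread).

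The 12 falls and 12 rises named by rule, the largest by the smaller of their pair changes, all passed in both limma fits. The falls were ADM, ENO2, NDRG1, FOS, EGLN3, APOL2, MT2A, C8orf58, CA9, ANGPTL4, EFNA3 and DDIT4, and in each of them both roseoflavin libraries were below both others, as in 18.3% of all tested genes. The rises were SLC7A11, FOSL1, ALPP, COPRS, DKK1, ZNF593, KRT23, FNDC10, CTXN1, POLR1G, ALPG and SRXN1, and in each except DKK1 both roseoflavin libraries were above both others, as in 13% of all tested genes. The rule picked these genes by their pair changes, so the lack of overlap is a description.

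**Figure D2:**
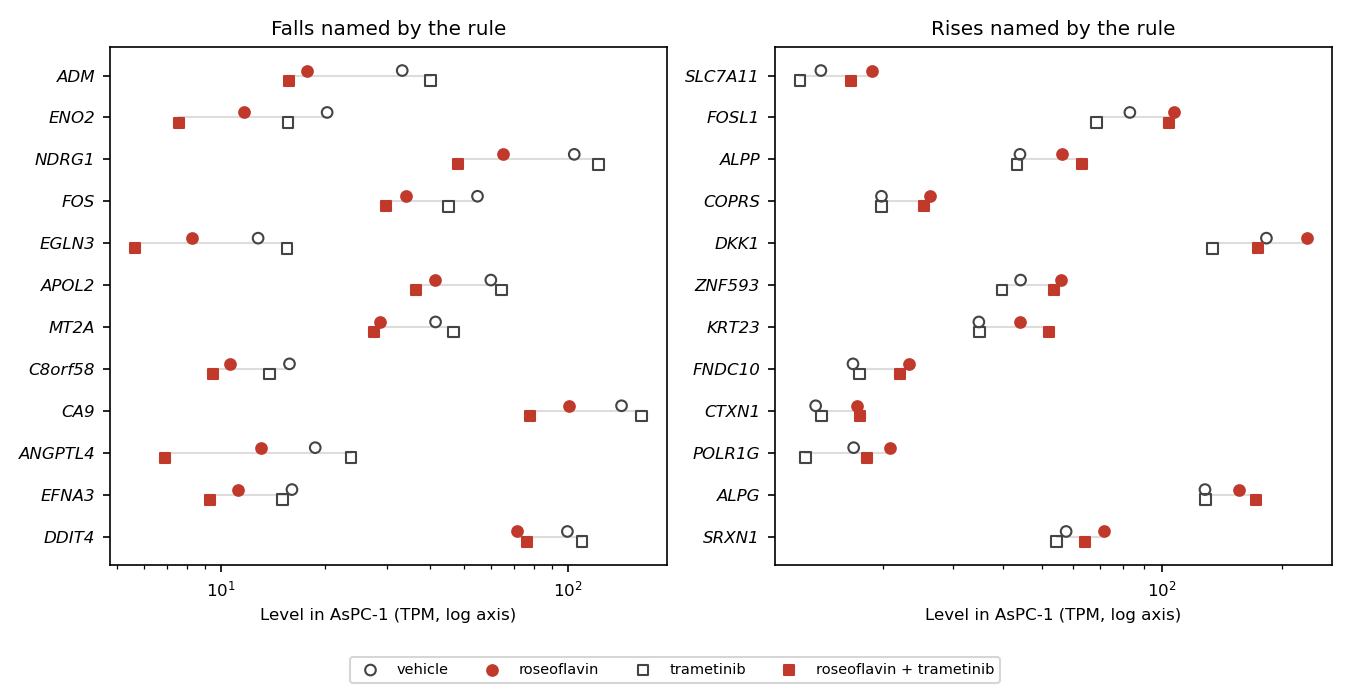
Levels of the 12 named falls (left) and 12 named rises (right) in the 4 AsPC-1 libraries, in TPM on a log axis, with 1 point per library. Filled red points, the libraries with roseoflavin, sit left of the open points for every named fall, from 17.7 and 15.7 TPM against 33.3 and 40.2 TPM in ADM.

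HIF targets outside glycolysis fell in the larger part of the list. This list and the other gene lists were chosen with earlier results of these data known, so their counts are a description. Of 30 listed genes, 20 were tested, 20 were lower in both pairs, against 34.9% of all tested genes, and 14 passed downward in limma (12 with the 8-library spread), against 2.67%. The list's median change was -0.35 without trametinib and -0.50 with it, and the mean change ran from -1.09 (ADM) to -0.13 (PLOD1). The 14 that fell were ADM, NDRG1, CA9, VEGFA, BNIP3L, EGLN3, P4HA1, KDM3A, MXI1, DDIT4, BHLHE40, ERO1A, ANGPTL4 and WSB1. Those short of the threshold were EGLN1, PLOD1, INSIG2, FAM162A, AK4 and ZNF395, with adjusted p from 0.0977 (ZNF395) to 0.601 (FAM162A) in limma. The other listed genes were under the level filter or listed at 0.

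Among secreted products, ANGPTL4 (chromosome 19, 8363289 to 8374373, plus strand), an angiopoietin-like inhibitor of lipoprotein lipase, was at 18.7 TPM with vehicle, 13.0 TPM with roseoflavin, 23.7 TPM with trametinib and 6.88 TPM with both. The drop in the pair with trametinib, to 29% of its control, was deeper than in the other pair, to 69.7%. ANGPTL4 fell by 1.07 in log2(TPM + 1) units (SE 0.087; limma adjusted p 7.73e-31, and 0.0197 with the 8-library spread). VEGFA, the main growth factor of blood vessels, was at 25.7 TPM with vehicle, 19.1 TPM with roseoflavin, 26.9 TPM with trametinib and 20.4 TPM with both. VEGFA moved by nearly the same amount in both pairs, with changes of -0.41 and -0.38 (limma adjusted p 0.00042).

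Of the genes for pH and oxygen sensing, CA9 (chromosome 9, 35673856 to 35681159, plus strand), a cell surface carbonic anhydrase, was at 143 TPM with vehicle, 100.4 TPM with roseoflavin, 163 TPM with trametinib and 77.7 TPM with both. CA9 fell by 0.78 on the log2(TPM + 1) scale (limma adjusted p 5.68e-19, and 0.00912 with the 8-library spread). EGLN3 (chromosome 14, 33924231 to 34462774, minus strand), an oxygen-dependent prolyl hydroxylase that marks HIF for degradation, was at 12.8 TPM with vehicle, 8.23 TPM with roseoflavin, 15.5 TPM with trametinib and 5.66 TPM with both. EGLN3 fell by 0.94 (limma adjusted p 8.57e-23, and 0.00912 with the 8-library spread). In the GENCODE models CA9 overlaps ARHGEF39 on the other strand and EGLN3 overlaps SPTSSA, and how reads from such overlaps were assigned is not given in the sources used here.

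Among the intracellular HIF targets, DDIT4, a stress-induced inhibitor of mTORC1, was at 99.6 TPM with vehicle, 71.1 TPM with roseoflavin, 109.6 TPM with trametinib and 76.0 TPM with both. Its changes of -0.48 and -0.52 were close to each other (limma adjusted p 2.08e-07, and 0.00155 with the 8-library spread). P4HA1, a catalytic subunit of the collagen prolyl hydroxylase, was at 82.0 TPM with vehicle, 62.9 TPM with roseoflavin, 98.7 TPM with trametinib and 58.1 TPM with both. Its change was larger with trametinib (-0.76) than without (-0.38). BNIP3L, a receptor for mitophagy, was at 81.6 TPM with vehicle, 71.7 TPM with roseoflavin, 96.2 TPM with trametinib and 59.9 TPM with both, so that most of its mean fall of 0.43 came from the pair with trametinib. The transcriptional regulators KDM3A (a histone demethylase), BHLHE40 (a repressor with a role in the circadian clock) and MXI1 (an antagonist of MYC) fell by 0.48, 0.40 and 0.35 on the log2(TPM + 1) scale. ERO1A, a flavoprotein that forms disulfide bonds in the endoplasmic reticulum, fell by 0.34, with changes of -0.11 and -0.57. WSB1, an adaptor of a ubiquitin ligase, fell by 0.32. ERO1A and MXI1 are the HIF targets outside glycolysis that did not pass with the 8-library spread (limma adjusted p 0.0877 and 0.0663).

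The fall was larger with trametinib than without it for 18 of these 20 HIF targets (20 of 20 after quantile normalization), and the change was lower with trametinib for 35.8% of all tested genes (50.2% after quantile normalization). For 18 of the 20 the trametinib library, which is the control of the second pair, was above the vehicle library. For 15 of the 20 the library with both compounds was below the one with roseoflavin. The same shares over all tested genes are not given, so these counts describe the list alone. Over all 179 genes that fell, 90 had the larger fall with trametinib and 89 without it, and after quantile normalization 107 of the 179 had the larger fall with trametinib. Whether the roseoflavin effect depends on trametinib within AsPC-1 was not tested, because the 4 libraries leave no residual degrees of freedom for that term.

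HIF targets of glycolysis and glucose uptake moved less. Of 24 listed genes 21 were tested, 13 were lower and 1 was higher in both pairs, against 34.9% and 21.1% of all tested genes, and 5 passed in limma, all downward (4 with the 8-library spread), against 2.67%. The list's median change was -0.12 in each pair, and -0.04 without and -0.15 with trametinib after quantile normalization. The 5 were ENO2, HK2, PFKFB3, ALDOC and PGK1. ENO2 (chromosome 12, 6913745 to 6923698, plus strand), the neuronal form of enolase, was at 20.2 TPM with vehicle, 11.6 TPM with roseoflavin, 15.6 TPM with trametinib and 7.58 TPM with both. Unlike most HIF targets outside glycolysis, its trametinib library was below vehicle, and it still had the second largest change without trametinib among the named genes (-0.75, against -0.95 with trametinib). ENO2 fell by 0.85 in log2(TPM + 1) units (SE 0.088; limma adjusted p 5.68e-19, and 0.000303 with the 8-library spread). ENO2 overlaps LRRC23 on the same strand in the GENCODE models.

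HK2, which phosphorylates glucose on entry, was at 22.7 TPM with vehicle, 18.1 TPM with roseoflavin, 26.8 TPM with trametinib and 17.0 TPM with both. PFKFB3, which makes an activator of phosphofructokinase, was at 15.5 TPM with vehicle, 12.1 TPM with roseoflavin, 15.9 TPM with trametinib and 10.1 TPM with both. Both fell by 0.47 on the log2(TPM + 1) scale (limma adjusted p 1.03e-05 for HK2 and 1.85e-05 for PFKFB3). ALDOC, an aldolase, fell by 0.39 and PGK1, phosphoglycerate kinase, by 0.29, and ALDOC did not pass with the 8-library spread (limma adjusted p 0.0925). The abundant enzymes of the pathway stayed short of the threshold: GAPDH had a mean change of -0.11, LDHA of -0.13, ENO1 of -0.01 and PKM of 0.03 on the log2(TPM + 1) scale. The glucose transporter SLC2A1 was at 142 TPM with vehicle, 134 TPM with roseoflavin, 118 TPM with trametinib and 104 TPM with both (limma adjusted p 0.529).

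The transcripts of the oxygen sensing factors themselves gave 1 call, and EGLN1 and EGLN3 are also in the list of HIF targets outside glycolysis. Of 9 listed genes 8 were tested, 3 were lower in both pairs and 1 passed downward, EGLN3, against 34.9% and 2.67% of all tested genes. HIF1A, which encodes the HIF-1 alpha subunit, was at 19.2 TPM with vehicle, 19.4 TPM with roseoflavin, 24.1 TPM with trametinib and 21.6 TPM with both. EPAS1, which encodes HIF-2 alpha, was at 30.3 TPM with vehicle, 30.6 TPM with roseoflavin, 33.8 TPM with trametinib and 32.2 TPM with both. The mean changes of HIF1A and EPAS1 were -0.07 and -0.03 (limma adjusted p 0.863 and 0.962), and protein levels were not measured.

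Promoter sequences of the HIF targets that fell are shown because HIF binds DNA at the core letters ACGTG. Windows of 250 bases before the start sites in RefSeq (GRCh38.p14) were searched for ACGTG on both strands. The letters were found in 18.5% of all 35093 windows, and in at least 1 window of 30.5% of the 5493 tested genes with an entry. Of the 16 tested HIF targets outside glycolysis with an entry, 12 had a match (75.0%), as had 8 of the 11 that passed. Of the 21 tested glycolytic targets 14 had a match (66.7%), as had 5 of the 5 that passed. A match is a run of letters and not a measured binding site. The lists hold textbook HIF targets and were chosen with earlier results of these data known, so the share of matches does not bear on the response to roseoflavin. The windows of 4 genes that fell are given 5′ to 3′ on the plus strand, which is the gene's strand, with the match in capitals (CACGT where it lies on the other strand, and CACGTG where matches on both strands overlap).
HK2 (chr2:74834920-74835169, 250 bases): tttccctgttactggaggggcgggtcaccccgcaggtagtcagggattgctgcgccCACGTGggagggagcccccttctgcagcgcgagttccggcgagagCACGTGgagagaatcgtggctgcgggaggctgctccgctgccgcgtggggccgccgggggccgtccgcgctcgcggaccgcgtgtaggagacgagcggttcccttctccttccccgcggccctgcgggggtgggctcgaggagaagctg
DDIT4 (chr10:72273674-72273919, 246 bases): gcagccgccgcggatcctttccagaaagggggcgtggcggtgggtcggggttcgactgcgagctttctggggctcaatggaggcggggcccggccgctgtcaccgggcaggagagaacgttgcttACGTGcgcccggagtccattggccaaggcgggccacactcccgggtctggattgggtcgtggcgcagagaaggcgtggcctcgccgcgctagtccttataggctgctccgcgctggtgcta
ANGPTL4 (chr19:8363905-8364150, 246 bases): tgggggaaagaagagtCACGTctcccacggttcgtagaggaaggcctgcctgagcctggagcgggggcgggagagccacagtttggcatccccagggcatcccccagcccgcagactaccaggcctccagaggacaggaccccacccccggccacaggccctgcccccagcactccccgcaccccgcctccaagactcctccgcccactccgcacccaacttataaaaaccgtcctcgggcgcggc
MXI1 (chr10:110209981-110210230, 250 bases): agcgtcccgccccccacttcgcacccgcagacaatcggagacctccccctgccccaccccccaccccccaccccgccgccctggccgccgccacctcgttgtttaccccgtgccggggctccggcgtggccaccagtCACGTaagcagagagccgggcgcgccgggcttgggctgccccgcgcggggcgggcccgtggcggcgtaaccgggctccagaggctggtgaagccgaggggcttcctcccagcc
In HK2 the letters occur 4 times counting both strands, beginning 194, 193, 149 and 148 bases before the start site. In DDIT4, ANGPTL4 and MXI1 they occur at 1 place each, beginning 125, 234 and 113 bases before it.

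Immediate early genes are switched on by growth factor and stress signals within minutes. Of 27 listed, 23 were tested, and 13 were lower and 4 higher in both pairs, against 34.9% and 21.1% of all tested genes. In limma 3 fell (FOS, DUSP1 and BTG1) and 1 rose (FOSL1), against 2.67% and 0.373%. The list's median change was -0.19 without trametinib and -0.06 with it, beside medians of -0.04 and 0.01 over all tested genes, and -0.14 and -0.08 after quantile normalization. DUSP1, a phosphatase that inactivates MAP kinases, was at 17.1 TPM with vehicle, 11.9 TPM with roseoflavin, 15.6 TPM with trametinib and 12.3 TPM with both. BTG1, an antiproliferative factor, was at 46.6 TPM with vehicle, 37.5 TPM with roseoflavin, 55.3 TPM with trametinib and 42.5 TPM with both. Their mean falls were 0.40 and 0.34 on the log2(TPM + 1) scale (limma adjusted p 0.000588 and 0.00263). EGR1, an early growth response factor, had a mean change of -0.14 and JUN, the partner of FOS, of -0.20, neither past the threshold (limma adjusted p 0.547 and 0.198).

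FOSL1 (chromosome 11, 65892049 to 65900573, minus strand) encodes FRA-1, another FOS family subunit of AP-1, and moved opposite to FOS. It was at 83.2 TPM with vehicle, 107 TPM with roseoflavin, 68.5 TPM with trametinib and 104 TPM with both. Trametinib alone gave the lowest level, and the library with both compounds was close to that with roseoflavin alone. FOSL1 rose by 0.48 on the log2(TPM + 1) scale, the largest mean rise of the 25 that passed (SE 0.081; limma adjusted p 7.88e-07, and 0.00712 with the 8-library spread). Of 16 tested ERK feedback and output genes, 1 passed upward (FOSL1) and 0 downward, against 0.373% and 2.67% of all tested genes. DUSP6, a phosphatase induced by ERK, was at 193 TPM with vehicle, 176 TPM with roseoflavin, 155 TPM with trametinib and 136 TPM with both (limma adjusted p 0.398). CCND1, the D-type cyclin, was at 84.8 TPM with vehicle, 101 TPM with roseoflavin, 87.3 TPM with trametinib and 103 TPM with both, and passed only with the 8-library spread (limma adjusted p 0.0388, against 0.0742).

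Further falls lay outside these lists or in other groups. APOL2, an intracellular protein of the apolipoprotein L family, was at 59.9 TPM with vehicle, 41.3 TPM with roseoflavin, 64.4 TPM with trametinib and 36.5 TPM with both. It fell by 0.66 on the log2(TPM + 1) scale (limma adjusted p 3.29e-13), and its neighbour APOL1 fell by 0.65. APOL1 and APOL2 are related in sequence, so reads shared between them could move both. EFNA3 and EFNA1, ephrin ligands of the Eph receptors that lie near each other on chromosome 1, fell by 0.56 and 0.58. EFNA3 was at 16.0 TPM with vehicle, 11.2 TPM with roseoflavin, 15.0 TPM with trametinib and 9.31 TPM with both. C8orf58 was at 15.7 TPM with vehicle, 10.6 TPM with roseoflavin, 13.8 TPM with trametinib and 9.45 TPM with both, with near equal changes of -0.52 and -0.50.

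Of the metallothioneins, small proteins that bind zinc and copper, 2 were high enough to be tested. Both passed downward in limma, against 2.67% of all tested genes. MT2A was at 41.5 TPM with vehicle, 28.8 TPM with roseoflavin, 46.8 TPM with trametinib and 27.5 TPM with both. MT1E was at 49.6 TPM with vehicle, 39.0 TPM with roseoflavin, 55.9 TPM with trametinib and 42.2 TPM with both. They fell by 0.63 and 0.37 on the log2(TPM + 1) scale (limma adjusted p 1.52e-11 and 0.000847). Metallothionein genes are close copies of each other, so the split of reads among them is uncertain. The zinc exporter SLC30A1, whose transcription also answers to zinc, had a mean change of -0.05 (limma adjusted p 0.916).

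In the list of interferon-stimulated genes 1 of 16 tested members passed downward, IRF7, a transcription factor of the interferon response, against 2.67% of all tested genes. IRF7 was at 21.4 TPM with vehicle, 15.7 TPM with roseoflavin, 22.8 TPM with trametinib and 14.3 TPM with both, and fell by 0.53 (limma adjusted p 3.29e-07). The other members did not pass, such as ISG15 with a mean change of -0.05. Of 12 tested secretory genes of the classical pancreatic cancer type, 3 passed, all downward, against the same 2.67%. The trefoil peptide TFF3 went from 41.4 to 30.5 TPM without trametinib and from 32.5 to 23.3 TPM with it. MUC1, a membrane mucin, went from 217 to 169 TPM and from 267 to 218 TPM, and TFF2 from 44.0 to 39.7 TPM and from 35.7 to 25.1 TPM. TFF3 and TFF2 did not pass with the 8-library spread (limma adjusted p 0.338 and 0.171). In MUC1 and TFF2 the libraries with and without roseoflavin overlapped across the pairs.

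Targets of NRF2, the transcription factor of the antioxidant response, were more often higher than lower. Of 28 listed genes 24 were tested, and 18 were higher and 0 lower in both pairs, against 21.1% and 34.9% of all tested genes. In limma 3 passed, SLC7A11, TXNRD1 and SRXN1, against 0.373% of all tested genes upward. The list's median change was 0.07 without trametinib and 0.11 with it, and 0.12 and 0.07 after quantile normalization. SLC7A11 (chromosome 4, 138164097 to 138242349, minus strand), the cystine importer that feeds glutathione synthesis, was at 14.0 TPM with vehicle, 18.8 TPM with roseoflavin, 12.4 TPM with trametinib and 16.7 TPM with both. It reached 134% of its control in each pair and rose by 0.40 in log2(TPM + 1) units (SE 0.087; limma adjusted p 0.000611, and 0.0184 with the 8-library spread). TXNRD1, a flavoprotein that reduces thioredoxin, was at 154 TPM with vehicle, 195 TPM with roseoflavin, 179 TPM with trametinib and 207 TPM with both. SRXN1, which repairs oxidised peroxiredoxins, was at 57.6 TPM with vehicle, 71.6 TPM with roseoflavin, 54.6 TPM with trametinib and 64.4 TPM with both. TXNRD1 rose by 0.28 and SRXN1 by 0.27, close to the smallest rises that passed (limma adjusted p 0.0304 and 0.0306).

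The other tested NRF2 targets did not pass. NQO1, a flavoprotein quinone reductase, was at 337 TPM with vehicle, 338 TPM with roseoflavin, 375 TPM with trametinib and 376 TPM with both. HMOX1, which degrades haem, was at 11.1 TPM with vehicle, 8.38 TPM with roseoflavin, 12.4 TPM with trametinib and 12.6 TPM with both, so its pairs moved in opposite directions. The promoter window of TXNRD1 is shown as an example of the antioxidant core, searched as TGACNNNGC on both strands. These letters lie in 10.9% of all windows and in at least 1 window of 16.4% of the tested genes, and in 4 of the 16 tested NRF2 targets with an entry (25.0%). The match is in capitals and begins 99 bases before the start site, on the plus strand, which is the gene's strand.
TXNRD1 (chr12:104215529-104215778, 250 bases): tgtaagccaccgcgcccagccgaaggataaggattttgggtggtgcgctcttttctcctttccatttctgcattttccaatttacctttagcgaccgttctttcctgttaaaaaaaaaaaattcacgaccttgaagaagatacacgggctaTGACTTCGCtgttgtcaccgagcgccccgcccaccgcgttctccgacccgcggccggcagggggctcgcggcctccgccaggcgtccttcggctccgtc

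Genes of the integrated stress response, the ATF4 programme that also contains SLC7A11, gave counts of direction near those of all tested genes. Of 19 tested, 4 were higher and 8 lower in both pairs, against 21.1% and 34.9% of all tested genes. SLC7A11 rose and DDIT3 fell, 1 call in each direction against 0.373% and 2.67%. DDIT3 encodes CHOP, a transcription factor induced by ATF4, and was at 35.4 TPM with vehicle, 26.4 TPM with roseoflavin, 36.3 TPM with trametinib and 26.7 TPM with both. It fell by 0.42 on the log2(TPM + 1) scale (limma adjusted p 8.68e-05, and 0.00712 with the 8-library spread). ATF4 itself had a mean change of -0.17 and ASNS, asparagine synthetase, of -0.25, neither past the threshold (limma adjusted p 0.385 and 0.0973). DDIT3 overlaps MBD6 and MARS in the GENCODE models.

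Sterol synthesis genes were nearly all slightly higher, and none of the 18 tested passed in the 4-library fit, against 3.04% of all tested genes. In both pairs 15 were higher and 0 lower, against 21.1% and 34.9% of all tested genes. The list medians were 0.13 without trametinib and 0.14 with it, beside -0.04 and 0.01 over all tested genes, and 0.19 and 0.13 after quantile normalization. SQLE, the squalene epoxidase and a flavoprotein, was at 33.7 TPM with vehicle, 40.8 TPM with roseoflavin, 40.1 TPM with trametinib and 47.7 TPM with both. With the TPM as deposited, SQLE passed with the 8-library spread and not in the 4-library fit (limma adjusted p 0.0419 and 0.055). IDI1, an isomerase of the mevalonate pathway, was at 30.4 TPM with vehicle, 36.8 TPM with roseoflavin, 37.0 TPM with trametinib and 43.7 TPM with both (limma adjusted p 0.0703).

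The remaining named rises had varied roles. DKK1, a secreted inhibitor of WNT signalling, was at 183 TPM with vehicle, 231 TPM with roseoflavin, 134 TPM with trametinib and 174 TPM with both. Its library with both compounds was below vehicle, but each pair rose, by 0.33 and 0.38 (limma adjusted p 0.0015). KRT23, a type I keratin, was at 34.8 TPM with vehicle, 44.0 TPM with roseoflavin, 34.9 TPM with trametinib and 52.1 TPM with both (limma adjusted p 1.26e-05). The other tested keratins did not pass. ALPP and ALPG, the placental and germ cell alkaline phosphatases, are near-identical neighbours on chromosome 2 whose reads may be shared. ALPP was at 44.1 TPM with vehicle, 56.2 TPM with roseoflavin, 43.4 TPM with trametinib and 63.0 TPM with both. ALPG was at 128 TPM with vehicle, 156 TPM with roseoflavin, 129 TPM with trametinib and 172 TPM with both. Both rose, by 0.43 and 0.35 on the log2(TPM + 1) scale (limma adjusted p 2.06e-05 and 0.00165).

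POLR1G, a subunit of RNA polymerase I, was at 16.9 TPM with vehicle, 20.9 TPM with roseoflavin, 12.8 TPM with trametinib and 18.2 TPM with both, and rose by 0.38 (limma adjusted p 0.00107). POLR1G overlaps ERCC1 and PPP1R13L on the other strand in the GENCODE models. COPRS, a partner of the arginine methyltransferase PRMT5, rose by 0.36, with changes of 0.39 and 0.34. ZNF593, a small zinc finger protein, rose by 0.38, FNDC10 by 0.38 and CTXN1 by 0.31 on the log2(TPM + 1) scale. Their adjusted p in limma ranged from 0.000554 (ZNF593) to 0.016 (CTXN1).

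Genes that handle riboflavin or carry flavins were counted because roseoflavin resembles riboflavin. Of 9 riboflavin handling genes 5 were tested and 0 passed in limma, in either fit. Over all tested genes 3.04% passed in the 4-library fit and 1.73% in the 8-library fit. At such shares 0 calls among so few genes do not show a lack of response. The plasma membrane transporter SLC52A2 was at 104 TPM with vehicle, 96.6 TPM with roseoflavin, 87.2 TPM with trametinib and 99.6 TPM with both. FLAD1, the FAD synthase, was at 17.1 TPM with vehicle, 16.9 TPM with roseoflavin, 15.1 TPM with trametinib and 17.2 TPM with both, and RFK, the riboflavin kinase, was under the level filter. SLC25A32, a mitochondrial carrier of folate and FAD, was at 23.3 TPM with vehicle, 25.7 TPM with roseoflavin, 20.8 TPM with trametinib and 26.5 TPM with both (limma adjusted p 0.12). Of 26 tested flavoproteins TXNRD1 rose and QSOX1 and ERO1A fell, 3 calls against 3.04% of all tested genes, and the median mean change was -0.01. QSOX1, like ERO1A, forms disulfide bonds in the secretory pathway, and fell by 0.37 (limma adjusted p 0.00119).

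The 35 tested subunits of respiratory complex I, which holds FMN, had 0 calls, against 3.04% of all tested genes. Their median change was -0.03 without trametinib and 0.15 with it. The mitochondrial share of TPM was 44.1% in the roseoflavin library and 41.3% in the library with both. After quantile normalization the medians of the complex I subunits were 0.03 and 0.14. Cell cycle genes also gave 0 calls in limma, against the same 3.04%. They were 24 tested S phase genes (median mean change 0.04) and 32 tested G2 and mitosis genes (median mean change 0.00). Of 20 tested lysosome and autophagy genes 1 passed downward, against 2.67% of all tested genes. It was ULK1, a kinase that starts autophagy, which fell by 0.35 (limma adjusted p 0.00461).

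**Figure D3:**
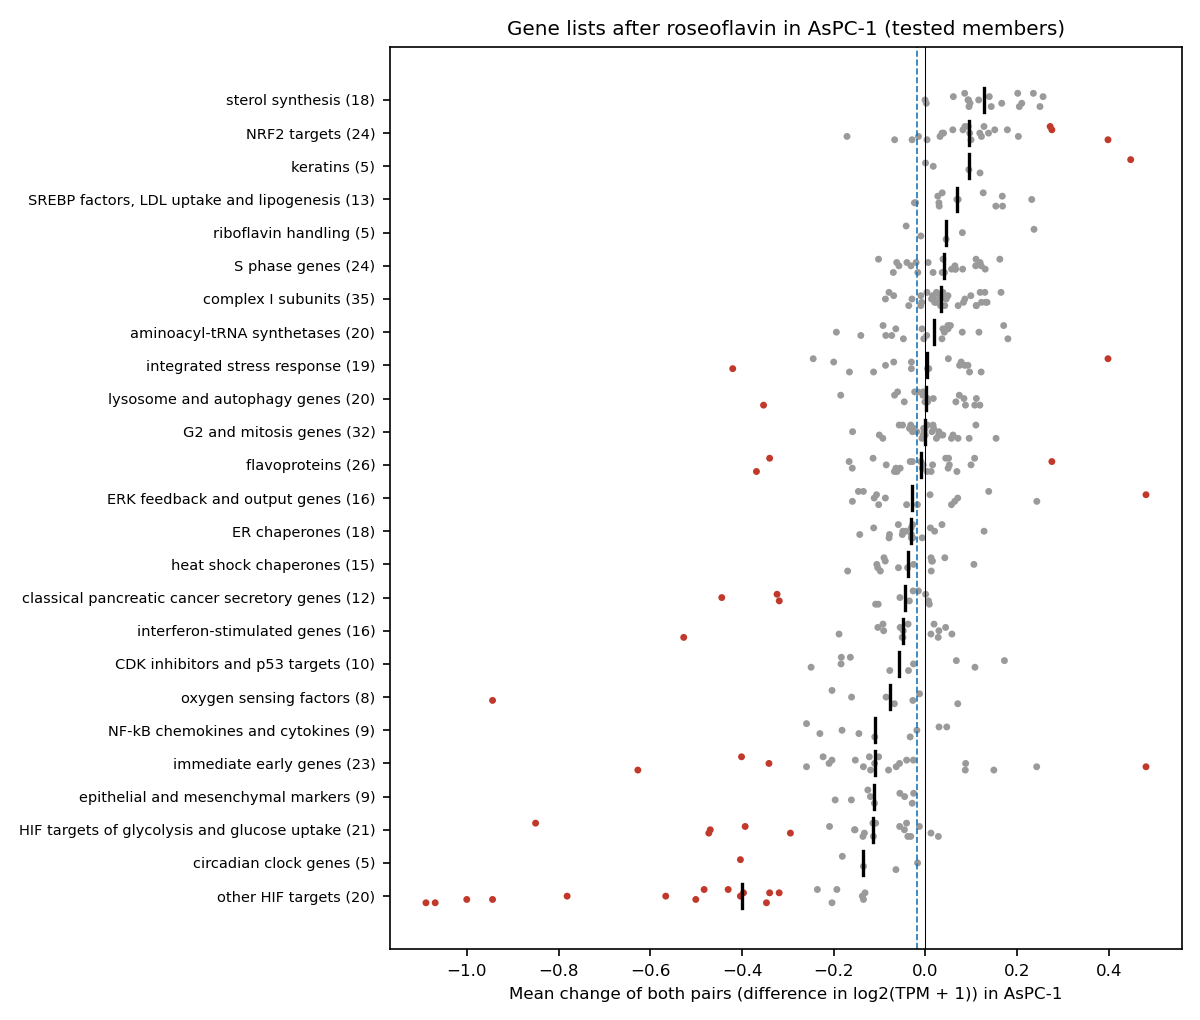
Mean change of both pairs for the tested members of each list with 5 or more, in log2(TPM + 1), with genes past the limma threshold in red, list medians as black bars and the number tested in brackets. The blue dashed line is the median over all tested genes, -0.02. The list of other HIF targets has the lowest median, -0.40, and sterol synthesis the highest, 0.13.

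The same contrast in PANC-1 shows which changes differed between the lines. The difference itself, taken as the change in PANC-1 less that in AsPC-1, was tested in limma over the 8 libraries. It passed for 173 of 6710 genes (2.58%), positive for 157 (2.34%) and negative for 16 (0.238%). The 6710 genes were kept by their AsPC-1 level alone, so some were near the floor in PANC-1, where log2(TPM + 1) damps a change. Of the 157, 141 were lower on average in AsPC-1 and higher in PANC-1, and of the 16, 15 were the reverse. The AsPC-1 change enters both tests, so some overlap with the genes called in AsPC-1 is built in. Among the 173 were 71 of the 179 genes that fell in AsPC-1 and 10 of the 25 that rose. This count rests on the scaling and on the libraries: after quantile normalization 0 genes passed (1151 with an unadjusted p under 0.05 in limma), rescaling without mitochondrial transcripts gave 93 positive and 83 negative, and without the AsPC-1 trametinib library, or the AsPC-1 library with both, 0 passed. Without the AsPC-1 vehicle or roseoflavin library 12 passed, and over all 19122 genes with at least 1 TPM in 2 libraries 0 did.

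Of the 157 positive differences, 18 were HIF targets outside glycolysis and 9 were glycolytic ones. Of the 20 tested outside glycolysis, 19 were higher in both PANC-1 pairs, and for 18 the difference passed in limma, always with the AsPC-1 change below the PANC-1 change, against 2.34% of all tested genes. Of the 21 glycolytic targets, 19 were higher in both PANC-1 pairs and 9 had a difference that passed. Over all tested genes 34.7% were higher and 32.6% lower in both PANC-1 pairs. Among the 18, EGLN3 did not exceed 0.744 TPM in PANC-1, and CA9 did not exceed 3.68 TPM. ADM was at 215 TPM with vehicle and 252 TPM with roseoflavin in PANC-1, and at 205 TPM with trametinib and 239 TPM with both, so its PANC-1 level was above the AsPC-1 level in every library. The difference for ADM was 1.31 (SE 0.119; limma adjusted p 0.000413). NDRG1 was at 25.2 TPM with vehicle, 32.7 TPM with roseoflavin, 24.0 TPM with trametinib and 35.8 TPM with both in PANC-1. Its difference was 1.46 (SE 0.166; limma adjusted p 0.00185), although its PANC-1 level was below the AsPC-1 level.

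FOS had changes in the same direction in both lines. In PANC-1 it was at 11.3 TPM with vehicle, 8.38 TPM with roseoflavin, 7.97 TPM with trametinib and 5.86 TPM with both. The difference between lines was 0.24 and did not pass (SE 0.089; limma adjusted p 0.196). SLC7A11, TXNRD1 and SRXN1 rose in AsPC-1 and changed more in PANC-1, where their mean changes were 0.84, 0.72 and 0.71, with differences of 0.45, 0.44 and 0.43 (limma adjusted p 0.0416, 0.0153 and 0.0142). Of the 18 tested sterol synthesis genes 15 were higher in both PANC-1 pairs as well, against 34.7% of all tested genes. The difference passed for 1 of the 18, MSMO1, a methylsterol oxidase, against 2.58% of all tested genes.

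The 5 genes with the smallest adjusted p for the difference were DDIT3, ENO2, DDIT4, HMOX1 and MT1E. DDIT3 changed by -0.42 in AsPC-1 and 0.77 in PANC-1, where it went from 58.3 to 97.3 TPM without trametinib and from 60.9 to 107 TPM with it, a difference of 1.19 (SE 0.077; limma adjusted p 0.000104). HMOX1 went from 273 to 657 TPM and from 257 to 668 TPM in PANC-1, while in AsPC-1 it stayed between 8.38 and 12.6 TPM, and the difference was 1.49 (SE 0.115; limma adjusted p 0.00015). MT1E went from 103.7 to 162 TPM and from 125 to 179.7 TPM in PANC-1, where it was above its AsPC-1 level, with a difference of 0.95. ENO2 and DDIT4 were higher with roseoflavin in both PANC-1 pairs, with mean changes of 0.42 and 0.41, and had differences of 1.27 and 0.91. All 19 tested integrated stress response genes were higher in both PANC-1 pairs, against 34.7% of all tested genes, and 10 had a positive difference that passed, against 2.34%.

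**Figure D4:**
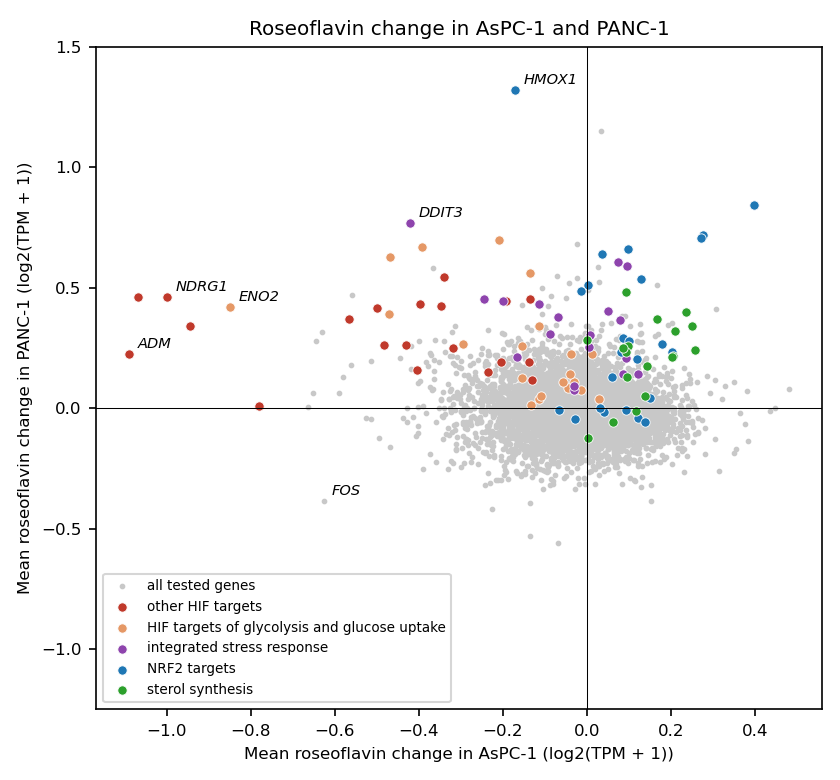
Mean roseoflavin change of each tested gene in AsPC-1 (x axis) and PANC-1 (y axis), in log2(TPM + 1), with 5 gene lists in colour. HIF targets outside glycolysis lie left of 0 and mostly above it, with ADM at -1.09 and 0.22, while FOS is below 0 in both lines.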

How the data were processed

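RNA of 8 spheroid cultures was sequenced after library preparation with a stranded, poly(A)-selecting kit. The authors deposited 1 table of TPM per gene, per the file headers. STAR 2.7.3a, HTSeq 2.0.2 and hg38 are listed in the submitters' processing notes, without a role. From 1048575 rows, 985926 blank ones were dropped. Samples were grouped by their labels, and log2(TPM + 1) was modelled in limma 3.58.1 (R 4.3.3; moderated tests, prior variance with a trend), with roseoflavin and trametinib as terms for the 4 AsPC-1 libraries and 1 residual degree of freedom. The prior degrees of freedom came out infinite, so SEs ranged only from 0.0805 to 0.12. The 8-library fit added the line and its interactions (2 residual degrees of freedom). P-values were adjusted by Benjamini-Hochberg over 6710 genes (threshold 0.05).

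The genes named were the 12 largest rises and falls that passed, ranked by the smaller pair change, the 5 smallest adjusted p for the line difference, ADM, NDRG1, FOS and the members of 29 lists (589 genes, 418 tested). APOL1 and EFNA1 were named after their values were seen. The members and the lists were chosen with earlier results of these data known. The models were tested on simulated data. The alternatives were other filters, pseudocount, scaling, spread and model terms, and leaving out each library.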

Additional observations from a re-analysis of the deposited data

Results flagged for a closer look

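The roseoflavin effect differed between AsPC-1 and PANC-1 for 173 genes by the limma interaction test, and 22 of the genes named by rule are among them. The rule named 5 of these for their small adjusted p in this same test. It named the others by AsPC-1 changes, which are part of the difference, so the count of 22 is a description. The differences that follow are the change in PANC-1 less that in AsPC-1, in log2(TPM + 1), and each passed the adjusted threshold. Among targets of the hypoxia-inducible factors the difference was 1.31 for ADM, 1.46 for NDRG1, 1.53 for ANGPTL4, 1.29 for EGLN3, 1.27 for ENO2, 0.91 for DDIT4 and 0.79 for CA9. Of these, EGLN3 (0.272 to 0.744 TPM) and CA9 (3.135 to 3.681 TPM) were low in PANC-1, where log2(TPM + 1) damps a change. Other genes that fell in AsPC-1 had 1.03 for EFNA3, 0.95 for MT2A, 0.95 for MT1E, 0.67 for APOL2, 0.47 for C8orf58 and 1.19 for DDIT3. HMOX1, which did not pass in AsPC-1, had 1.49. SLC7A11 and SRXN1 changed more in PANC-1, by 0.45 and 0.43. The genes that rose in AsPC-1 and had a lower change in PANC-1 were FOSL1 (-0.40), COPRS (-0.39), DKK1 (-0.52), ZNF593 (-0.44), CTXN1 (-0.57) and POLR1G (-0.52).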

How the results depend on the processing

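Against 204 genes in the 4-library fit, limma called 116 with the 8-library spread, 22 without a term for trametinib, and 0 when all genes with at least 1 TPM in 2 libraries or all genes without a filter were tested (1346 and 1663 with an unadjusted p under 0.05). A pseudocount of 0.1, quantile normalization, rescaling without mitochondrial transcripts and no trend gave 209, 230, 201 and 205. Filters added after the data had been seen gave 401 (NM_ accession, at least 1 TPM in 2 libraries) and 58 (mean of at least 10 TPM, any accession). All 204 were among the 401, but only 21 of the 204 were among the 58. The fits without 1 AsPC-1 library used the 8-library design, which called 116 with all libraries, and then rested on 1 AsPC-1 pair. Leaving out 1 AsPC-1 library left 0 to 2 calls. For the 173 differences between lines, quantile normalization gave 0, the wider set of genes 0, a pseudocount of 0.1 gave 94, and leaving out 1 library gave 0 to 128. HMOX1, at -0.17, ranged from -0.37 to 0.025 when 1 AsPC-1 library was left out, and was 0.025 without the vehicle or the roseoflavin library. No other of 53 named genes reversed under these settings, but with 1 AsPC-1 library left out 47 to 49 of them no longer passed. With the 8-library spread 47 of the 53 kept their side of the threshold. Of 28 list medians, quantile normalization moved 9 and rescaling without mitochondrial transcripts 7 by more than the spread between pairs. The trametinib pairing is a term of the main model. No paired analysis by replicate number was possible because each group has 1 library.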

Other observations

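Other genes that passed in both limma fits or in the 4-library fit, picked after their values were seen, are given as values. The homeobox genes HOXB13 and HOXB4 each fell by 0.40 on the log2(TPM + 1) scale (limma adjusted p 0.000707 and 0.000509). ARRDC3, an arrestin-like adaptor, fell by 0.65, and the metal transporter SLC11A2 by 0.59. SLC6A8, the creatine transporter, fell by 0.56. The histone genes H2AC6 and H2BC5, whose transcripts can be polyadenylated, fell by 0.51 and 0.44. Among the 25 rises were RRP12 (0.32) and BYSL (0.29), factors of ribosome assembly, which passed in the 4-library fit (limma adjusted p 0.0138 and 0.0304) and not with the 8-library spread (0.0862 and 0.161).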
